A study of Homo sapiens with 6 samples.

Results

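The zinc finger genes named ZNF that HCT116 cells express were examined in RNA-seq libraries of cells given siRNAs against the long noncoding RNA LINC01534. HCT116 is a human colorectal cancer cell line. Members were gene symbols made of ZNF, a number and at most 1 further letter, with a level of 3 or more FPKM, averaged over the Parent libraries. FPKM is the number of sequenced fragments scaled to the length of the transcript and to the depth of the library. Of the 26255 gene symbols in the files, 529 had such a name, and 229 of these reached the floor. Another 69 were listed at 0 in every library, and 231 were above 0 in at least 1 library but under the floor. The rule leaves out 10 ZNF genes by name, ZNF567, ZNF461, ZNF382, ZNF529, ZNF566, ZNF850, ZNF260, ZNF790, ZNF345 and ZNF568, and 0 of these 10 reached the floor. Because the rule uses the Parent level, the level in Parent is given as a description without a test, and nothing is read from the share of members called against Parent.

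The 6 libraries form 3 groups of 2, all of the HCT116 line. The Parent cells are labelled only as parent cells, the second group received siLINC01534-1, and the third received siLINC01534-2. The labels do not describe the Parent cells as transfected, and no library with a negative control siRNA was used here. Nothing in the labels says that the libraries of a group came from separate cultures, so p-values measure only the spread between these libraries, which may be technical. The effect of transfection and that of the siRNA therefore cannot be told apart in a comparison with Parent. The log2 difference between siLINC01534-1 and siLINC01534-2 does not use the Parent level, and the members were not chosen on it. Its test does use Parent, because the spread of each gene is estimated over all 6 libraries.

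Most ZNF genes encode C2H2 zinc finger proteins, in which short loops held by a zinc ion each contact a few bases of DNA, so that a row of fingers reads a longer sequence. Many also carry a KRAB box at their start. The KRAB box binds TRIM28, which brings in the histone methyltransferase SETDB1, HP1 proteins and the NuRD complex, and the bound site is silenced. KRAB zinc finger genes arose by repeated duplication, lie largely in clusters on chromosome 19, and are best known for silencing transposable elements. ZNF proteins without a KRAB box have varied roles, from promoter binding to ribosome assembly and spindle function.

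Steps between low FPKM values gave an estimated depth of 8690000 to 10400000 reads per library. At this depth an FPKM of 3 stands for about 30.3 reads per kilobase of transcript. The estimate rests on 282 genes with a single annotated transcript and assumes a fixed fragment length. Between 16513 and 16903 genes were above 0 in a library. LINC01534 had an FPKM of 0.285 and 0.571 in Parent cells, and with siLINC01534-1 it was listed at 0 in 1 library and had 0.283 in the other. With siLINC01534-2 it had 0.660 and 0.551. Its listed FPKM with the label siLINC01534-2 was thus not lower than in Parent, and group names here follow the labels. All of these values lie far under an FPKM of 3 and rest on few reads. They cannot show whether either siRNA lowered LINC01534. By qRT-PCR in HCT116 cells, the paper reports a reduction with each siRNA relative to a negative control siRNA. Of 7 epithelial markers, VIL1 and CDX1 stayed under an FPKM of 1 in all libraries, and the summed FPKM of the 7 was 3450 and 3515 in Parent cells, 2918 and 2924 with siLINC01534-1, and 3511 and 3327 with siLINC01534-2. KRT8, KRT18 and KRT19 fell with siLINC01534-1, and CDH1 and KRT19 rose with siLINC01534-2. Of 9 markers of other cell types, 7 stayed under 1 in all libraries, among them PTPRC, PECAM1 and ALB. The summed FPKM of the 9 was 7.06 and 6.03 in Parent cells, 9.39 and 9.13 with siLINC01534-1, and 10.5 and 10.1 with siLINC01534-2. The fibroblast collagen COL1A1 rose with siLINC01534-1 (log2 difference 0.68, limma adjusted p = 0.0025), and the macrophage gene CD68 rose with siLINC01534-2 (0.71, adjusted p = 0.017). The part of these shifts in the results below was not tested.

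In Parent, most expressed ZNF genes were present at a low level. Their mean FPKM ran from 3.01 to 140, with a median of 6.31 and quartiles of 4.66 and 10.7. The median over all 10192 genes at the same floor was 15.9. An FPKM under 10 was found for 164 members, 58 lay between 10 and 30, and 7 were at 30 or above. Just inside the floor were ZNF675 (3.01), ZNF211 (3.03) and ZNF783 (3.04), and just outside were ZNF182 (2.97), ZNF175 (2.94) and ZNF319 (2.93).

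The 5 members with the highest Parent level were all without a KRAB box. ZNF207, also called BuGZ, is a microtubule-binding protein that loads BUB3 onto kinetochores. Its FPKM was 138 and 142 in Parent cells, 106 and 109 with siLINC01534-1, and 123 and 129 with siLINC01534-2, and no group overlapped another. ZNF593, a ribosome assembly factor, was at 74.6 and 72.3 in Parent cells, 67.7 and 62.2 with siLINC01534-1, and 101 and 106 with siLINC01534-2. ZNF146 consists almost only of zinc fingers, and its FPKM was 64.6 and 60.6, then 70.4 and 71.6, then 68.1 and 68.0 in the same order. Both siRNA groups of ZNF146 lay above Parent. ZNF664 was at 56.5 and 53.6 in Parent cells, 57.4 and 54.9 with siLINC01534-1, and 58.6 and 56.5 with siLINC01534-2. ZNF330, a nucleolar protein, was at 32.7 and 35.2, 34.9 and 34.7, and 34.2 and 31.4. The siLINC01534-1 libraries of ZNF664 and ZNF330 lay within or across the range of the Parent libraries.

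A KRAB box was found in a protein of 115 members and in none of the proteins of 108, and no protein could be searched for the other 6. These were 5 members with a pseudogene symbol and ZNF518A, which is annotated as protein coding but for which no complete reading frame was taken from the annotation. Here, a gene without a KRAB box is one in which none was found. The search was built from protein stretches that fit a set pattern, so divergent boxes may have been missed. The members with a KRAB box had a lower level, with a median Parent FPKM of 5.59 compared with 9.15 without one. They had a median of 11 C2H2 fingers compared with 6. Of the 226 members with 1 position in the annotation, 74 were on chromosome 19, and 55 of these had a KRAB box. Chromosomes 16 and 7 held 20 members each, and 18 of those on chromosome 7 had a KRAB box.

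**Figure D1:**
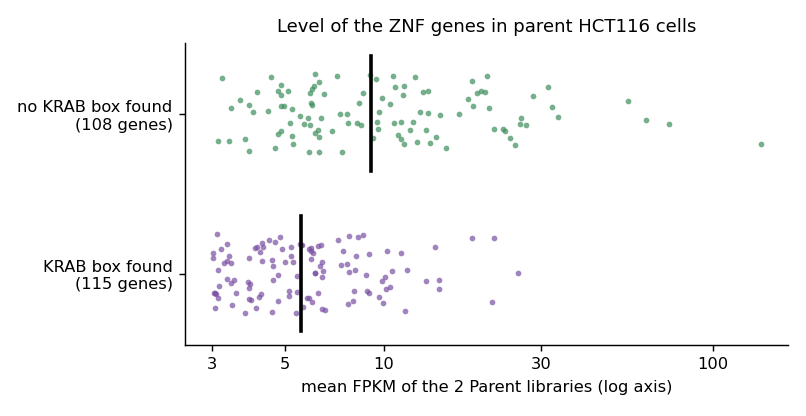
Mean FPKM of each ZNF gene over the 2 Parent libraries on a log axis, for the 108 genes without and the 115 genes with a KRAB box. Each point is a gene and each black line a median. The median is 5.59 with and 9.15 without a KRAB box, and the highest point is ZNF207 at 140.

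The first comparison asked what differed between siLINC01534-1 and Parent cells. With siLINC01534-1, 45 of the 229 ZNF genes rose and 25 fell, and 159 did not pass the test. Over all 12203 genes tested, 21.8% rose and 24.5% fell (46.3% together), and at the same Parent floor 22.6% rose and 28.1% fell (50.7% together). The changes were small: no member differed by 1 or more on the log2(FPKM + 1) scale, and 21 differed by at least 0.5. The median log2 difference of the members was 0.061, beside 0.00 over all genes tested. Differences were tested with limma at a Benjamini-Hochberg adjusted p under 0.05, two-sided. The median standard error was 0.079 for members and 0.071 for all genes tested. The count of higher members was 29 without Parent replicate 2, 26 without siLINC01534-1 replicate 1 and 24 without siLINC01534-1 replicate 2. The count of lower members was 11, 16 and 15 in the same order. Without both libraries of siLINC01534-2, 40 members rose and 20 fell.

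The 6 largest increases included genes with and without a KRAB box. ZNF219, a transcription factor that acts with SOX9 in cartilage, had an FPKM of 5.01 and 4.68 in Parent cells, 9.16 and 8.47 with siLINC01534-1, and 5.54 and 5.71 with siLINC01534-2. It rose with siLINC01534-1 by 0.75 ± 0.068 on the log2 scale (SE, adjusted p = 0.00074). The gene lies at chr14:21558236-21572881 in GRCh37, on the minus strand. ZNF655, a KRAB gene whose product was described as a partner of VAV1, was at 24.6 and 26.6 in Parent cells, 43.2 and 40.8 with siLINC01534-1, and 30.9 and 34.0 with siLINC01534-2. The groups of ZNF655 were fully separate, and it rose by 0.69 ± 0.067 (adjusted p = 0.00093). ZNF277, a zinc finger protein that binds the Polycomb protein BMI1, was at 5.82 and 5.91, then at 10.1 and 10.1, then at 7.62 and 7.48. It rose by 0.69 ± 0.051 (adjusted p = 0.00040). Like ZNF655, it was highest with siLINC01534-1 and intermediate with siLINC01534-2.

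The KRAB genes ZNF558, ZNF189 and ZNF248 were also among the largest increases. ZNF558, a KRAB repressor of SPATA18, was at 6.55 and 6.38 in Parent cells, 10.9 and 10.8 with siLINC01534-1, and 6.02 and 7.30 with siLINC01534-2. It rose by 0.66 ± 0.089 with siLINC01534-1 (adjusted p = 0.0027), while the siLINC01534-2 libraries lay around Parent. ZNF189 was at 6.47 and 6.48, 10.5 and 10.3, and 7.71 and 7.59, and rose by 0.61 ± 0.050 (adjusted p = 0.00055). ZNF248 was at 2.65 and 3.65, 6.34 and 4.60, and 2.43 and 3.05. Its increase of 0.64 ± 0.19 (adjusted p = 0.037) passed in 6 of 13 alternative settings. It was lost without either Parent library, without siLINC01534-1 replicate 1, without either siLINC01534-2 library, without a filter on low values and with the replicate number as a block, with an adjusted p of up to 0.168.

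The 6 largest decreases were in genes without a KRAB box. The KRAB gene ZNF205, not among these 6, fell by 0.52 ± 0.077 (adjusted p = 0.0040), close to the decrease of ZNF296 below. ZNF395, a hypoxia-induced DNA-binding protein, had an FPKM of 10.2 and 11.3 in Parent cells, 5.15 and 5.71 with siLINC01534-1, and 10.9 and 11.4 with siLINC01534-2. It fell with siLINC01534-1 by 0.87 ± 0.075 on the log2 scale (adjusted p = 0.00063), and its siLINC01534-2 libraries overlapped Parent. ZNF704, a paralog of ZNF395, was at 6.37 and 5.73, 3.34 and 2.98, and 5.25 and 4.64, and fell by 0.76 ± 0.094 (adjusted p = 0.0020). ZNF618, a partner of the hydroxymethylcytosine reader UHRF2, was at 5.29 and 4.43, 2.53 and 2.14, and 3.77 and 3.69. Its mean FPKM with siLINC01534-1 was 0.481 times that in Parent, the lowest such ratio of a member, and it fell by 0.81 ± 0.11 (adjusted p = 0.0026). For both ZNF704 and ZNF618 the libraries of each siRNA lay below both Parent libraries.

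ZNF367, ZNF488 and ZNF296 followed. ZNF367 was at 10.9 and 11.6 in Parent cells, 6.94 and 6.92 with siLINC01534-1, and 8.88 and 7.19 with siLINC01534-2, and fell by 0.63 ± 0.098 with siLINC01534-1 (adjusted p = 0.0046). ZNF488, a transcription factor of oligodendrocyte development, was at 4.02 and 3.77, 2.36 and 2.21, and 3.24 and 3.02, and fell by 0.58 ± 0.083 (adjusted p = 0.0035). ZNF296 was at 8.10 and 9.13, 5.29 and 6.13, and 8.31 and 8.94, and fell by 0.52 ± 0.092 (adjusted p = 0.0072). The siLINC01534-2 libraries of ZNF296 lay within the Parent range. Apart from ZNF248, the 12 genes of this comparison passed the test in all 13 alternative settings.

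**Figure D2:**
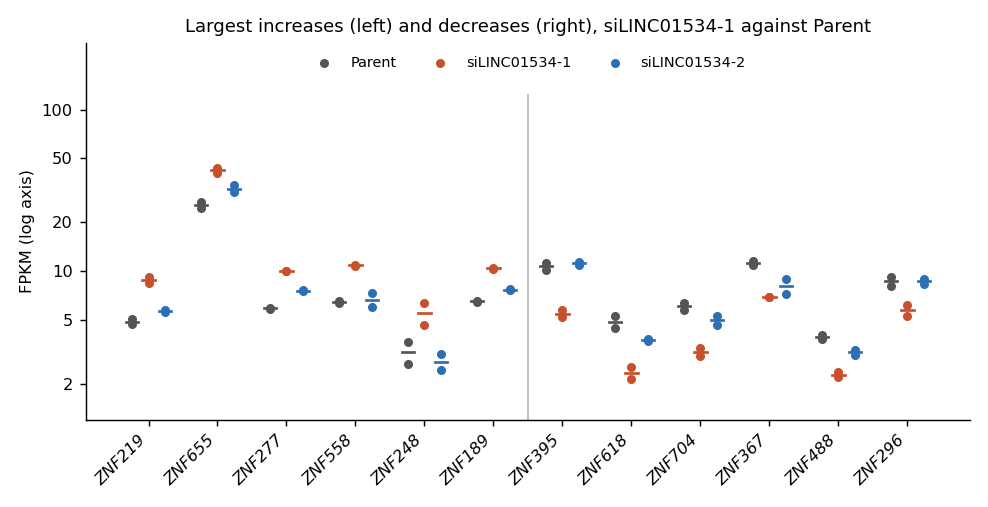
FPKM in each library on a log axis for the ZNF genes with the 6 largest increases (left) and 6 largest decreases (right) in siLINC01534-1 against Parent. Points are libraries and short lines the mean of 2. ZNF655 is highest, at 43.2 and 40.8 with siLINC01534-1, and ZNF618 falls to 2.53 and 2.14.

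An siRNA can also pair through a short stretch of its antisense strand with other transcripts, as a microRNA does, so the members were searched for the match of bases 2 to 8 of each antisense strand. The match is GAATAAA for siLINC01534-1 and TTCGAGT for siLINC01534-2, read on the transcript strand only, and for each gene the 3′ UTR came from its longest coding transcript. GAATAAA contains AATAAA, the polyadenylation signal, so many transcripts hold it near their end. Of 224 members with an annotated 3′ UTR, 61 (27.2%) held GAATAAA, compared with 26.7% of all genes at the Parent floor. The sites of ZNF655, which rose with siLINC01534-1, and of ZNF367, which fell, are shown as examples. ZNF395 and ZNF704, which also fell, hold the match too, and their sites are not shown. The coordinates are of GRCh37 (hg19), the gene models are of GENCODE, and the capitals mark the match.
ZNF655, site 1, plus strand, chr7:99171516-99171542: attcacatggGAATAAAattccattgc
ZNF655, site 2, plus strand, chr7:99174038-99174064: acttccacttGAATAAAggtgtgtttg
ZNF367, site 1, minus strand, chr9:99148265-99148291: aacagcataaGAATAAAcatgctgtaa
ZNF367, site 2, minus strand, chr9:99148232-99148258: aagatgctttGAATAAAaatttatttt
Site 1 of ZNF655 lies 2540 bases before the end of the transcript and site 2 lies 18 bases before it. The sites of ZNF367 lie 52 and 19 bases before its end. ZNF395 holds 2 matches, ZNF704 holds 3 and ZNF207 holds 5. No match was found in the 3′ UTR used for the other 8 genes named in this comparison.

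Among the 61 members with GAATAAA, 4 rose and 11 fell with siLINC01534-1, and their median log2 difference was 0.003. ZNF655, ZNF652, ZNF397 and ZNF623 rose. ZNF207, ZNF263, ZNF48, ZNF367, ZNF629, ZNF395, ZNF704, ZNF212, ZNF35, ZNF318 and ZNF888 fell. Among the 163 members without the match, 39 rose and 14 fell, and the median was 0.088. Without Parent replicates 1 and 2 and siLINC01534-1 replicates 1 and 2, each left out in turn, 24, 25, 22 and 19 of the members without the match rose and 9, 4, 7 and 6 fell. Of those with the match, 4, 3, 3 and 4 then rose and 10, 7, 9 and 9 fell. Over all genes at the Parent floor, 14.4% of those with the match rose and 45.7% fell (median -0.16), compared with 26.4% and 22.8% of those without it (median 0.021). Members with the match also had longer 3′ UTRs, with a median of 2866 bases compared with 1506 bases. TTCGAGT was found in 2 members, and neither passed the test in any comparison. The part that the match or the UTR length plays in these differences was not tested, and the longest annotated transcript may not be the one these cells make.

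With siLINC01534-2, fewer ZNF genes passed the test against Parent. Of the 229 members, 24 rose and 13 fell, beside 11.1% higher and 11.8% lower over all genes tested (22.8% together) and 12% and 13.8% at the Parent floor (25.7% together). No member differed by 1 or more on the log2 scale, and 5 differed by at least 0.5. The median log2 difference was 0.018. These counts depended on every library: the count of higher members was 2 without Parent replicate 1, 3 without Parent replicate 2, 11 and 10 without siLINC01534-1 replicates 1 and 2, and 6 and 2 without siLINC01534-2 replicates 1 and 2. The count of lower members was 2, 1, 7, 7, 3 and 3 in the same order. This comparison shares the Parent libraries with the previous one, so the values for each are given side by side.

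The gene that rose most was ZNF165, a cancer-testis antigen with a SCAN domain. Its FPKM was 6.69 and 7.17 in Parent cells, 10.7 and 13.1 with siLINC01534-2, and 10.1 and 11.4 with siLINC01534-1. Both siRNA groups of ZNF165 lay above Parent. It differed from Parent by 0.69 ± 0.11 with siLINC01534-2 (adjusted p = 0.011) and by 0.57 ± 0.11 with siLINC01534-1 (adjusted p = 0.0090). ZNF593 rose by 0.49 ± 0.053 with siLINC01534-2 (adjusted p = 0.0044) and fell by 0.18 ± 0.053 with siLINC01534-1 (adjusted p = 0.042). ZNF768, which binds ancient MIR repeats, was at 18.7 and 19.8 in Parent cells, 25.4 and 26.9 with siLINC01534-2, and 19.5 and 19.8 with siLINC01534-1. It rose by 0.43 ± 0.052 with siLINC01534-2 (adjusted p = 0.0059) and did not pass the test with siLINC01534-1 (0.03 ± 0.052). ZNF217, an oncogene that recruits co-repressors, was at 9.48 and 9.75, then 12.5 and 13.7, then 10.1 and 9.87 in that order, and rose by 0.41 ± 0.061 with siLINC01534-2 (adjusted p = 0.010). ZNF428 was at 12.3 and 14.0 in Parent and 20.4 and 17.9 with siLINC01534-2, and rose by 0.51 ± 0.12 (adjusted p = 0.034). ZNF513 was at 7.75 and 9.02 in Parent and 12.1 and 10.9 with siLINC01534-2, and rose by 0.42 ± 0.090 (adjusted p = 0.027).

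The largest decrease with siLINC01534-2 was in ZNF346, a protein that binds double-stranded RNA. Its FPKM was 5.67 and 6.35 in Parent cells, 3.71 and 3.55 with siLINC01534-2, and 6.22 and 5.98 with siLINC01534-1. It fell by 0.60 ± 0.076 with siLINC01534-2 (adjusted p = 0.0066), and its siLINC01534-1 libraries lay within the Parent range. ZNF138, a KRAB gene, was at 5.32 and 5.85 in Parent and 3.07 and 3.88 with siLINC01534-2, and fell by 0.56 ± 0.13 (adjusted p = 0.032). ZNF322 was at 6.41 and 6.17 in Parent cells, 4.42 and 3.79 with siLINC01534-2, and 7.94 and 7.69 with siLINC01534-1. It fell by 0.52 ± 0.079 with siLINC01534-2 (adjusted p = 0.011) and rose by 0.27 ± 0.079 with siLINC01534-1 (adjusted p = 0.036). ZNF35 was at 5.66 and 6.29 in Parent and 3.94 and 4.03 with siLINC01534-2, and fell by 0.48 ± 0.073 (adjusted p = 0.011). ZNF100, a KRAB gene, was at 4.84 and 5.14 in Parent and 3.57 and 3.18 with siLINC01534-2, and fell by 0.45 ± 0.091 (adjusted p = 0.023). ZNF367 fell by 0.44 ± 0.098 (adjusted p = 0.029). ZNF593, ZNF768 and ZNF346 passed in all 13 alternative settings. The calls of ZNF165, ZNF217 and ZNF322 were lost without either Parent library or without siLINC01534-2 replicate 2, with an adjusted p of up to 0.075, and ZNF35 was lost in 3 settings. ZNF100 passed in 8 settings, ZNF428, ZNF138 and ZNF367 in 6 and ZNF513 in 5.

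When the siRNAs were compared with each other, 45 of the 229 ZNF genes were higher and 31 were lower with siLINC01534-1, and 153 did not pass the test. Over all genes tested, 19.5% were higher and 22.3% lower, and at the Parent floor 21.0% and 25.1% (46.1% together). In all, 33.2% of the members passed, compared with 41.8% of all genes tested. No member differed by 1 or more on the log2 scale, 20 differed by at least 0.5, and the median difference was 0.043. The count of higher members was 27 and 19 without siLINC01534-1 replicates 1 and 2 and 16 and 30 without siLINC01534-2 replicates 1 and 2. The count of lower members was 20, 16, 20 and 23 in the same order. Over the 3 comparisons, 103 members passed in at least 1 and 126 in none.

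ZNF322 had the largest difference in favour of siLINC01534-1, 0.79 ± 0.079 (adjusted p = 0.0013), with the 2 siRNA groups on opposite sides of Parent. ZNF248 differed by 0.78 ± 0.19 (adjusted p = 0.022), ZNF138 by 0.66 ± 0.13 (adjusted p = 0.011) and ZNF558 by 0.63 ± 0.089 (adjusted p = 0.0038). ZNF789, a KRAB gene, was at 3.08 and 3.12 in Parent cells, 4.996 and 3.250 with siLINC01534-1, and 1.97 and 1.98 with siLINC01534-2. Its mean was 2.09 times as high with siLINC01534-1 as with siLINC01534-2, and it differed by 0.76 ± 0.17 (adjusted p = 0.017). The siLINC01534-1 libraries of ZNF789 were themselves far apart, and both siLINC01534-2 libraries lay below Parent. ZNF133, also a KRAB gene, was at 3.56 and 3.29 in Parent cells, 5.23 and 5.74 with siLINC01534-1, and 2.86 and 3.61 with siLINC01534-2, and differed by 0.62 ± 0.11 (adjusted p = 0.0083). ZNF322 and ZNF558 passed in all 13 alternative settings. The call was lost for ZNF789 without either siLINC01534-2 library, for ZNF248 without siLINC01534-1 replicate 1 or either siLINC01534-2 library, for ZNF138 without siLINC01534-1 replicate 2 or siLINC01534-2 replicate 1, and for ZNF133 without siLINC01534-1 replicate 2. Their adjusted p then reached up to 0.077, 0.112, 0.064 and 0.056, respectively.

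In the other direction, ZNF395 differed by -0.92 ± 0.075 on the log2 scale (adjusted p = 0.00070), and its mean FPKM was 0.487 times that with siLINC01534-2. ZNF593 had a difference of -0.67 ± 0.053 (adjusted p = 0.00066). ZNF580, a gene studied in endothelial cells, was at 20.6 and 20.7 in Parent cells, 18.1 and 14.7 with siLINC01534-1, and 27.9 and 22.5 with siLINC01534-2. Neither siRNA group of ZNF580 passed the test against Parent, but they lay on opposite sides of it and differed by -0.59 ± 0.13 (adjusted p = 0.017). ZNF205, a KRAB gene, was at 11.2 and 11.3, 8.20 and 6.98, and 11.7 and 11.5, and differed by -0.56 ± 0.077 (adjusted p = 0.0037). ZNF503, a co-repressor of the NLZ family, was at 14.3 and 13.3, 11.95 and 12.83, and 19.3 and 17.3, and differed by -0.53 ± 0.074 (adjusted p = 0.0039). ZNF48 was at 11.3 and 11.6, 7.85 and 9.91, and 13.7 and 12.6, and differed by -0.53 ± 0.11 (adjusted p = 0.013). The first of these pairs is Parent, the second siLINC01534-1 and the third siLINC01534-2. ZNF205 passed the test against Parent only with siLINC01534-1, and ZNF503 only with siLINC01534-2. For both genes the siLINC01534-1 libraries lay below Parent and the siLINC01534-2 libraries above it. The call was lost for ZNF580 without siLINC01534-1 replicate 2 or siLINC01534-2 replicate 1, and for ZNF48 without the latter.

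**Figure D3:**
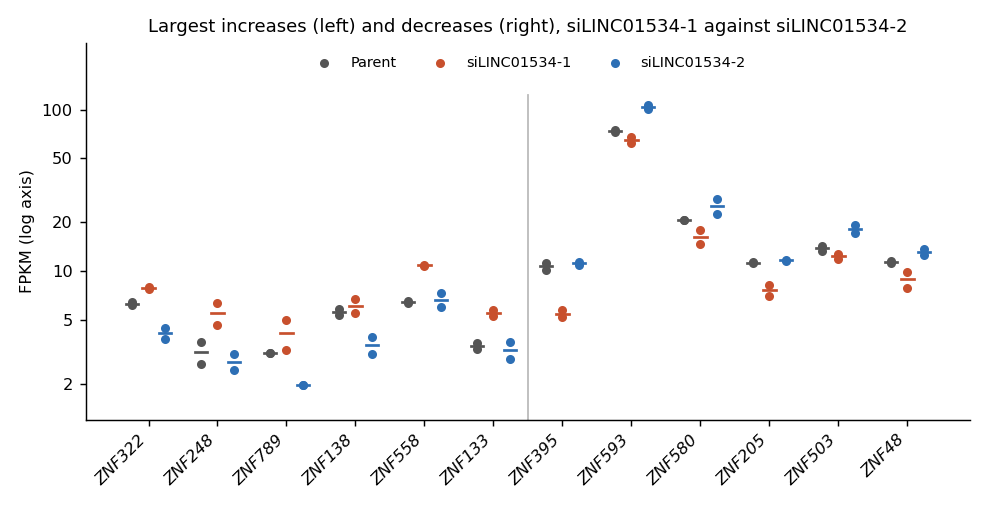
FPKM in each library on a log axis for the ZNF genes with the 6 largest positive (left) and 6 largest negative (right) differences of siLINC01534-1 against siLINC01534-2. Points are libraries and short lines the mean of 2. ZNF322, ZNF789, ZNF593, ZNF580, ZNF205, ZNF503 and ZNF48 have their siRNA groups on opposite sides of Parent. Of these, only ZNF322 and ZNF593 passed the test against Parent with each siRNA.

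The members were then split by the KRAB box. With siLINC01534-1 against Parent, 23 of the 115 KRAB genes rose and 9 fell, and of the 108 genes without a KRAB box 19 rose and 16 fell. Between the siRNAs, 27 KRAB genes were higher with siLINC01534-1 and 4 were lower, whereas 16 genes without a KRAB box were higher and 27 were lower. These are 23.5% higher and 3.48% lower with a KRAB box and 14.8% higher and 25% lower without one, beside 21.0% and 25.1% of all genes at the Parent floor. The median log2 difference between the siRNAs was 0.086 with and -0.018 without a KRAB box, and against Parent it was 0.11 and 0.028 for siLINC01534-1. With siLINC01534-2 against Parent, 7 KRAB genes rose and 7 fell (median 0.008), and 16 genes without a KRAB box rose and 6 fell (median 0.048). The classes also differed in level. The median Parent FPKM was 5.59 with and 9.15 without a KRAB box, and 15.9 over all genes at the Parent floor. Of 104 other ZNF symbols tested under the floor, without those left out by name, 13.5% were higher and 2.88% lower between the siRNAs. Neither the difference between the classes nor the part of level in it was tested.

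Beside the genes described above, ZNF823 (0.56), ZNF484 (0.50) and ZNF621 (0.47) were among the KRAB genes that rose with siLINC01534-1 against Parent on the log2 scale, and ZNF888 (-0.39) and ZNF695 (-0.37) were among those that fell. They were chosen after their values were seen. ZNF621 was at 7.51 and 7.53 in Parent cells, 10.9 and 10.7 with siLINC01534-1, and 8.71 and 8.77 with siLINC01534-2, a separate level in each group. ZNF823 was at 3.82 and 3.89, 5.64 and 6.69, and 4.43 and 4.54 in the same order. ZNF33A and ZNF33B, near-identical genes on either side of the centromere of chromosome 10, had log2 differences of 0.33 and 0.38. Reads from such copies may be shared between them, and the sources used here do not state how reads with several matches were counted, so their values are uncertain.

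The counts by KRAB box moved with single libraries. Between the siRNAs, the count of higher KRAB genes was 16 and 9 without siLINC01534-1 replicates 1 and 2 and 7 and 19 without siLINC01534-2 replicates 1 and 2, and the count of lower ones was 2, 2, 5 and 5. Of the genes without a KRAB box, 9, 8, 7 and 9 were then higher and 18, 14, 15 and 18 lower. Against Parent, the count of KRAB genes that rose with siLINC01534-1 was 15 without Parent replicate 1, 15 without Parent replicate 2 and 13 and 12 without siLINC01534-1 replicates 1 and 2, and the count that fell was 5, 2, 4 and 5. Of the genes without a KRAB box, 13, 13, 12 and 11 then rose and 14, 9, 12 and 10 fell. Without a filter on low values, 15 KRAB genes rose and 6 fell with siLINC01534-1. For siLINC01534-2 against Parent, leaving out 1 library gave 0 to 1 KRAB genes that rose and 0 to 4 that fell, and 2 to 10 genes without a KRAB box that rose and 1 to 3 that fell. In the same comparison, 2 KRAB genes rose and 3 fell with the replicate number as a block, and 10 genes without a KRAB box rose. Without a filter on low values these counts were 2, 1 and 9.

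**Figure D4:**
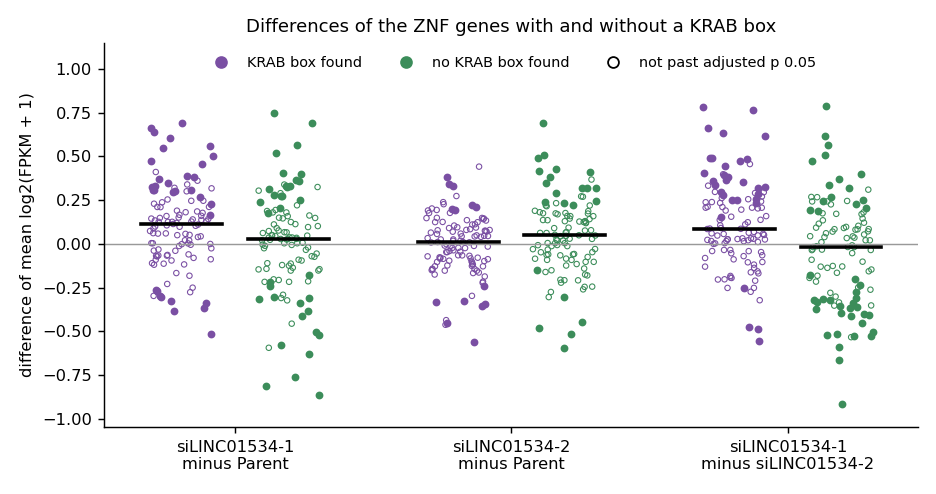
Difference of mean log2(FPKM + 1) of each ZNF gene in the 3 comparisons, for 115 genes with and 108 genes without a KRAB box. Filled points passed the limma test and black lines are medians. Between the siRNAs the medians are 0.086 with and -0.018 without a KRAB box.

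The KRAB genes were also split by chromosome. Of the 55 on chromosome 19, 6 rose and 3 fell with siLINC01534-1 against Parent, compared with 17 and 6 of the 60 on other chromosomes. Between the siRNAs, 6 were higher on chromosome 19 and the other 49 did not pass, compared with 21 higher and 4 lower elsewhere. Taking all 74 members on chromosome 19, 7 rose and 6 fell with siLINC01534-1, and 4 rose and 3 fell with siLINC01534-2. Without siLINC01534-1 replicates 1 and 2 and siLINC01534-2 replicates 1 and 2, each left out in turn, 6, 1, 1 and 6 KRAB genes on chromosome 19 and 10, 8, 6 and 13 on other chromosomes were higher between the siRNAs. Against Parent, 6, 3, 5 and 3 KRAB genes on chromosome 19 and 9, 12, 8 and 9 on other chromosomes rose with siLINC01534-1 without Parent replicates 1 and 2 and siLINC01534-1 replicates 1 and 2, and 2, 1, 1 and 2 and 3, 1, 3 and 3 fell. With siLINC01534-2, leaving out any 1 library left at most 1 member of chromosome 19 that rose and at most 1 that fell. These splits were not tested.

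The KRAB split and the GAATAAA match were also read together. Of the 34 KRAB genes with GAATAAA, 1 rose and 3 fell with siLINC01534-1 against Parent, and of the 81 without it 22 rose and 6 fell. Of the 27 genes with GAATAAA but no KRAB box, 3 rose and 8 fell, and of the 81 genes with neither feature 16 rose and 8 fell. In this order, the shares that rose were 2.94%, 27.2%, 11.1% and 19.8%, and those that fell 8.82%, 7.41%, 29.6% and 9.88%. At the Parent floor, 14.4% of all genes with the match rose and 45.7% fell, beside 26.4% and 22.8% without it. Leaving out 1 library gave 11 to 19 KRAB genes without the match that rose, fewest without either siLINC01534-1 library, and 8 to 16 genes with neither feature, fewest without siLINC01534-1 replicate 2, and 1 to 5 and 3 to 7 then fell. Without siLINC01534-1 replicate 1, 2 KRAB genes with the match and 1 gene with the match but no KRAB box rose. Without Parent replicate 2, 1 KRAB gene with the match fell.

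Genes with described roles were taken from 3 lists. Of 10 genes with a role at the ribosome, in RNA or at the spindle, all 10 were members. With siLINC01534-1, 2 rose and 2 fell, with siLINC01534-2, 1 rose and 3 fell, and between the siRNAs 3 were higher and 2 lower. Of all genes at the Parent floor, 22.6% rose and 28.1% fell with siLINC01534-1, and 12% and 13.8% with siLINC01534-2. Higher and lower between the siRNAs were 21.0% and 25.1% of them. The role lists are short and were not tested against these shares. With siLINC01534-2, leaving out any 1 library left 1 gene that fell, ZNF346, and the calls of ZNF207 and ZNF326 were lost each time. With siLINC01534-1, the call of ZNF593 was lost in the absence of any 1 library other than siLINC01534-1 replicate 1, and that of ZNF385A without this one. Between the siRNAs, the call of ZNF326 was lost without any 1 library other than Parent replicate 1. ZNF207 fell with siLINC01534-1 by 0.38 ± 0.038 on the log2 scale (adjusted p = 0.0010) and with siLINC01534-2 by 0.15 ± 0.038 (adjusted p = 0.043). ZNF830, a spliceosome component, was at 11.6 and 12.4 in Parent cells, 15.7 and 16.7 with siLINC01534-1, and 12.02 and 12.07 with siLINC01534-2, and rose with siLINC01534-1 by 0.40 ± 0.056 (adjusted p = 0.0032). ZNF385A, an RNA-binding partner of p53, was at 25.7 and 28.4, 35.2 and 32.9, and 32.0 and 31.3 in the same order, and rose with siLINC01534-1 by 0.32 ± 0.062 (adjusted p = 0.0096). ZNF326, which couples splicing to transcription in the DBIRD complex, was at 19.999 and 21.593, 19.2 and 19.1, and 17.2 and 16.1, and fell with siLINC01534-2 by 0.30 ± 0.057 (adjusted p = 0.019). ZNF207 and ZNF326 were below Parent in all 4 siRNA libraries, and ZNF385A was above it in all 4.

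Of 25 promoter and chromatin regulators without a KRAB box, 22 were members. With siLINC01534-1, 1 rose (ZNF146, by 0.18 ± 0.042, adjusted p = 0.018) and 2 fell (ZNF395 and ZNF318). With siLINC01534-2, 5 rose and 17 did not pass the test, and between the siRNAs 8 were lower with siLINC01534-1 and 14 did not pass. The 5 are 22.7% of the list, beside 12% of all genes at the Parent floor, and the 8 are 36.4%, beside 25.1%. The shares that rose and fell with siLINC01534-1 were 4.55% and 9.09%, beside 22.6% and 28.1%. ZNF318, a nuclear cofactor, was at 5.80 and 5.60 in Parent cells, 4.36 and 4.38 with siLINC01534-1, and 5.87 and 5.70 with siLINC01534-2, and fell with siLINC01534-1 by 0.32 ± 0.061 (adjusted p = 0.0093). ZNF532, a partner of ZMYND8, was at 3.39 and 3.47, 2.91 and 3.16, and 4.41 and 4.64, and rose with siLINC01534-2 by 0.32 ± 0.076 (adjusted p = 0.037). ZNF292, a large DNA-binding protein, was at 4.85 and 4.22, 4.38 and 4.70, and 5.80 and 5.98, and rose by 0.32 ± 0.083 (adjusted p = 0.045).

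ZNF644, a partner of the methyltransferases EHMT1 and EHMT2, was at 13.8 and 13.5 in Parent cells, 14.8 and 13.9 with siLINC01534-1, and 16.1 and 16.5 with siLINC01534-2, and rose with siLINC01534-2 by 0.24 ± 0.050 (adjusted p = 0.025). ZNF24, a SCAN domain protein, was at 28.7 and 28.1, 28.6 and 29.7, and 32.2 and 35.1, and rose by 0.24 ± 0.054 (adjusted p = 0.032). ZNF148, a promoter-binding factor also called ZBP-89, was at 5.85 and 6.10, 5.21 and 5.41, and 6.75 and 7.01. Both siRNA groups of ZNF148 were apart from Parent in opposite directions without passing the test, and they differed from each other by -0.32 ± 0.061 (adjusted p = 0.010). The 5 that rose with siLINC01534-2 were ZNF217, ZNF532, ZNF292, ZNF644 and ZNF24, and each of them was also lower with siLINC01534-1 than with siLINC01534-2. The calls of all 5 against Parent were lost without Parent replicate 1, without Parent replicate 2 and without siLINC01534-2 replicate 2. Each of the other libraries left out, the replicate block and no filter on low values left 2 of them. The count lower between the siRNAs was 4 without siLINC01534-1 replicate 1, 5 without siLINC01534-1 replicate 2 and 4 without siLINC01534-2 replicate 2. The increase of ZNF146 with siLINC01534-1 was lost without Parent replicate 2 or either siLINC01534-1 library, and 3 genes of the list rose with the replicate block.

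Of 16 KRAB genes with described roles, 6 were members, and 2 rose and 1 fell with each siRNA. These are 33.3% and 16.7% of the 6. The shares of all genes at the Parent floor were 22.6% and 28.1% with siLINC01534-1 and 12% and 13.8% with siLINC01534-2. ZNF263, which binds many promoters, was at 14.1 and 14.5 in Parent cells, 12.1 and 10.7 with siLINC01534-1, and 10.65 and 11.64 with siLINC01534-2. It fell by 0.30 ± 0.075 (adjusted p = 0.022) and 0.33 ± 0.075 (adjusted p = 0.032), respectively. ZNF746, a parkin substrate also called PARIS, was at 9.21 and 10.1, 12.5 and 11.6, and 11.6 and 11.5, and rose with siLINC01534-1 by 0.30 ± 0.064 (adjusted p = 0.014). ZNF274, which recruits SETDB1 to the ends of other ZNF genes, was at 4.04 and 3.76, 4.55 and 4.56, and 5.07 and 5.74, and rose with siLINC01534-2 by 0.38 ± 0.080 (adjusted p = 0.025). Every siRNA library lay above Parent for ZNF746 and ZNF274 and below it for ZNF263. With siLINC01534-2, the calls of ZNF655 and ZNF274 were lost without any 1 of the 6 libraries, and that of ZNF263 without either Parent library or either siLINC01534-2 library. ZNF274 and ZNF263 were also lost there with the replicate block and without a filter on low values. With siLINC01534-1, ZNF263 was lost without either Parent library or siLINC01534-1 replicate 2, and ZNF746 without Parent replicate 1 or siLINC01534-1 replicate 1.

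The proteins with which KRAB zinc finger proteins act were examined through 31 genes of the co-repressor pathway, all of which were tested. With siLINC01534-1, 2 rose and 16 fell, with a median log2 difference of -0.17, and with siLINC01534-2, 2 rose and 13 fell, with a median of -0.15. The shares that fell were 51.6% and 41.9%, beside 24.5% and 11.8% of all genes tested and 28.1% and 13.8% at the Parent floor. Mean Parent levels of these genes ran from 7.71 (FAM208A) to 370 (TRIM28). Their standard errors ran from 0.030 (TRIM28) to 0.099 (ATF7IP), most of them under the median of 0.071 over all genes tested. A smaller standard error makes a call easier, and its part in these shares was not tested. Between the siRNAs, 5 were higher and 9 lower with siLINC01534-1 (16.1% and 29.0%, beside 19.5% and 22.3% of all genes tested). The comparisons with Parent share the Parent libraries. With siLINC01534-2, 4 fell without either Parent library (TRIM28, CBX1, RBBP7 and DNMT1), 5 without either siLINC01534-2 library and 9 without either siLINC01534-1 library. Both increases were then lost each time, and with the replicate block. With siLINC01534-1, leaving out 1 library gave 11 to 15 genes that fell, and SETDB1 was lost without siLINC01534-1 replicate 1. Between the siRNAs, 2 were higher without the first library of either siRNA, and all 5 were lost without the second of either. TRIM28, named after its values were seen because it binds the KRAB box, had an FPKM of 369 and 371 in Parent cells, 231 and 231 with siLINC01534-1, and 318 and 310 with siLINC01534-2. It fell by 0.68 ± 0.030 (adjusted p = 0.00010) and 0.24 ± 0.030 (adjusted p = 0.0069), respectively. Its level was above that of every member.

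The methyltransferase EHMT1 was at 20.4 and 20.6 in Parent cells, 9.83 and 9.54 with siLINC01534-1, and 18.9 and 19.2 with siLINC01534-2, and fell with siLINC01534-1 by 1.01 ± 0.043 on the log2 scale (adjusted p = 8.6e-05). MBD3, a NuRD subunit, was at 43.2 and 43.1, 23.01 and 21.75, and 44.04 and 40.22, and fell by 0.92 ± 0.056 (adjusted p = 0.00022). UHRF1, which guides DNA methylation, was at 78.8 and 77.3, 44.5 and 44.2, and 60.7 and 66.2, and fell by 0.80 ± 0.049 with siLINC01534-1 (adjusted p = 0.00022) and by 0.30 ± 0.049 with siLINC01534-2 (adjusted p = 0.014). With siLINC01534-2, EHMT1 and MBD3 differed from Parent by -0.10 and -0.04 on the log2 scale and did not pass the test. RBBP7, a histone-binding NuRD subunit, fell with siLINC01534-2 by 0.34 ± 0.034 (adjusted p = 0.0036), and the HP1 gene CBX1 fell by 0.30 ± 0.040 (adjusted p = 0.0074).

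SETDB1, which methylates histone H3 at KRAB targets, was at 15.3 and 15.4 in Parent cells, 18.7 and 18.5 with siLINC01534-1, and 18.5 and 17.2 with siLINC01534-2. It rose by 0.26 ± 0.050 (adjusted p = 0.0089) and 0.21 ± 0.050 (adjusted p = 0.038), and all 4 siRNA libraries lay above Parent. SMARCAD1, a chromatin remodeler, rose with siLINC01534-1 by 0.35 ± 0.060 (adjusted p = 0.0065), and the NuRD helicase CHD3 rose with siLINC01534-2 by 0.19 ± 0.044 (adjusted p = 0.033). Between the siRNAs, SMARCAD1 (0.23), PPHLN1 of the HUSH complex (0.22) and the methyltransferase SUV39H2 (0.21) were the genes most in favour of siLINC01534-1, and EHMT1 (-0.91), MBD3 (-0.88) and UHRF1 (-0.51) those least so.

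**Figure D5:**
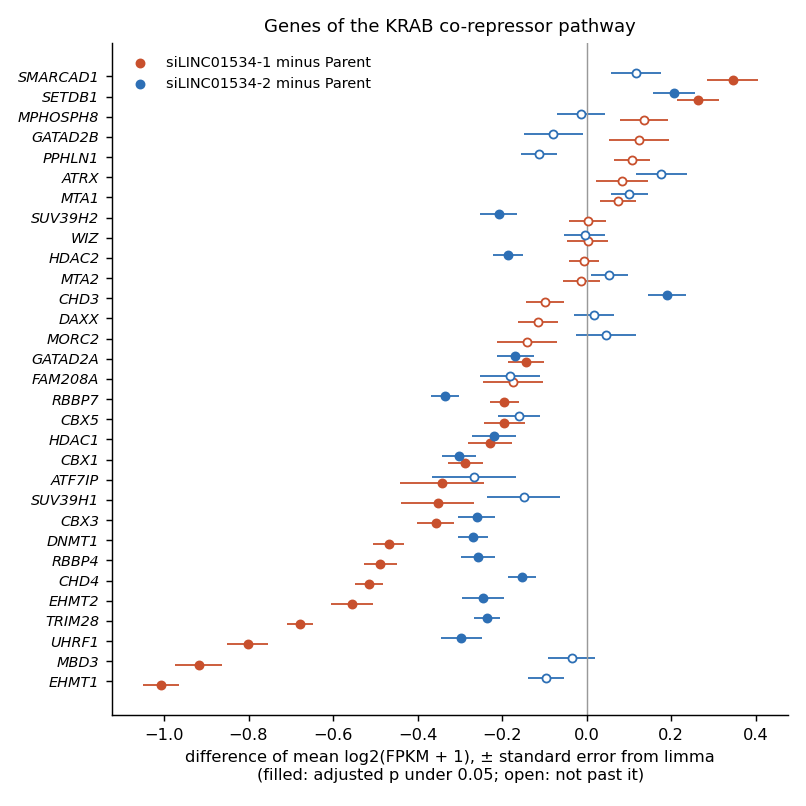
Difference of mean log2(FPKM + 1) from Parent, with its standard error from limma, for the 31 genes of the KRAB co-repressor pathway. Orange is siLINC01534-1, blue is siLINC01534-2, and filled points passed the test. EHMT1 is lowest, at -1.01 with siLINC01534-1, and SETDB1 lies above 0 with both siRNAs.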

How the data were processed

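RNA-seq libraries of HCT116 cells were analysed as the authors deposited them, as FPKM per gene symbol. The authors prepared strand-specific poly(A) libraries, sequenced 75-base single-end reads, mapped them to hg19 (TopHat2 2.0.13, Bowtie2 2.2.3, SAMtools 0.1.19) and calculated FPKM with Cuffnorm 2.2.1. Their gene annotation and treatment of reads with several matches are not given in the sources used here. The labels give 2 libraries per group and an RNeasy kit, and the methods give triplicate cultures and a miRNeasy kit.

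The deposited FPKM were turned into log2(FPKM + 1) for 12203 genes whose mean FPKM reached 1, including all 229 members. limma 3.58.1 in R 4.3.3 (eBayes with a trend, no replicate block) was fitted over all 6 libraries, with Benjamini-Hochberg adjustment over all genes tested, and checked on simulated data. The log2 scale understates changes of low genes, and ratios are of mean FPKM. Low values of 46.3% of 4737 genes were whole multiples of 1 read within 3%, so no count test was run.

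Of the members, 228 matched GENCODE on GRCh37. A KRAB box was sought with pyhmmer 0.12.3 (E-value under 1e-05) in proteins translated from GENCODE transcripts, not RefSeq proteins as first planned. Named were the 5 highest members in Parent, those next to the floor, the 6 largest increases and decreases past the threshold without overlap in each comparison, members of 3 role lists that passed, and up to 3 co-repressor genes per direction. Members, lists and tests were chosen with earlier results of these data known. The alternatives without both siLINC01534-2 libraries and for the KRAB split, the other splits and the lists were added after the values were seen.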

Additional observations from a re-analysis of the deposited data

Results flagged for a closer look

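The difference from Parent was not the same with siLINC01534-1 and siLINC01534-2 for 34 of the named ZNF genes. This is by the limma test of the difference between the siRNAs itself. Most named genes were chosen because they passed a comparison, some of them this one, so the count follows in part from that choice. Of all members, chosen without this comparison, 33.2% passed the same test, beside 41.8% of all genes tested. The values below are siLINC01534-1 minus siLINC01534-2 on the log2(FPKM + 1) scale. Higher with siLINC01534-1 were ZNF322 (0.79), ZNF248 (0.78), ZNF789 (0.76), ZNF138 (0.66), ZNF558 (0.63), ZNF133 (0.62), ZNF346 (0.62) and ZNF219 (0.57), and by less ZNF830 (0.40), ZNF189 (0.40), ZNF277 (0.37), ZNF655 (0.36), ZNF35 (0.24) and ZNF326 (0.19). Lower with siLINC01534-1 were ZNF395 (-0.92), ZNF593 (-0.67), ZNF580 (-0.59), ZNF205 (-0.56), ZNF503 (-0.53), ZNF48 (-0.53), ZNF296 (-0.52), ZNF704 (-0.51), ZNF618 (-0.51) and ZNF532 (-0.46), and by less ZNF768 (-0.40), ZNF513 (-0.37), ZNF217 (-0.36), ZNF318 (-0.34), ZNF488 (-0.33), ZNF148 (-0.32), ZNF292 (-0.32), ZNF207 (-0.23), ZNF24 (-0.20) and ZNF644 (-0.18). ZNF593 and ZNF322 passed the test against Parent in opposite directions with the 2 siRNAs. With 2 libraries per group no check of single libraries for outlying values could be made.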

How the results depend on the processing

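Median-ratio scaling, a stricter filter on low values, limma without a trend and, for the counts, another pseudocount kept every count over all members and by KRAB box within 1.5 times and every median over all members within the spread between libraries. Without a filter on low values, 12 members rose and 5 fell with siLINC01534-2, and with siLINC01534-1 14 KRAB genes without GAATAAA and 11 KRAB genes off chromosome 19 rose and 8 members without GAATAAA fell. The labels do not say whether libraries with the same replicate number belong together. Their deviations from the group means had correlations of 0.11, 0.03 and -0.05. With 2 libraries per group these correlations cannot settle whether the libraries are paired. With the replicate number as a block, 13 members rose and 7 fell with siLINC01534-2 against Parent, and the other counts over all members stayed within 1.5 times. By KRAB box the block gave 2 KRAB genes that rose and 3 that fell with siLINC01534-2, and 10 genes without a KRAB box that rose. A pseudocount of 0.1 or 0.5 moved the median log2 difference with siLINC01534-1 to 0.071 or 0.068.

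With members chosen at a Parent FPKM of at least 6 (129 genes), 24 rose with siLINC01534-1, 8 fell with siLINC01534-2 and 18 were higher with siLINC01534-1 than with siLINC01534-2. The medians were then 0.043 and 0.047 against Parent and 0.015 between the siRNAs. At a floor of 1 (330 genes, 328 of them tested) the medians were 0.11, 0.027 and 0.066, and with a mean over all 6 libraries of at least 3 (233 genes, 226 of them shared) 0.073, 0.028 and 0.053.

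Leaving out 1 library gave 24 to 41 higher and 11 to 21 lower members with siLINC01534-1 against Parent, 2 to 11 and 1 to 7 with siLINC01534-2 against Parent, and 16 to 44 and 16 to 28 between the siRNAs. The medians ran from 0.056 to 0.079, from 0.0009 to 0.041 and from 0.043 to 0.065. The lone library of a group was assumed to vary like the others. Over the named genes and 3 comparisons, 196 of the results without 1 library and 53 of those under other settings were no longer past the threshold, and none changed direction while called. These results also cover named genes in comparisons where they did not pass the main test and so had no call to lose. Depth limits the low members, whose floor is estimated at about 30.3 reads per kilobase. The cause of these changes was not tested.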

Other observations

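The genes described here were chosen after their values were seen. Of the members, 5 have a pseudogene symbol. ZNF271P had an FPKM of 6.38 and 5.71 in Parent cells, 8.23 and 8.23 with siLINC01534-1, and 5.54 and 5.89 with siLINC01534-2. It rose with siLINC01534-1 by 0.39 ± 0.071 on the log2 scale (limma, adjusted p = 0.0078). ZNF252P was at 5.99 and 5.80, 7.42 and 6.77, and 5.04 and 4.63 in the same order, and the siRNA groups differed by 0.47 ± 0.073 (adjusted p = 0.0054). For both genes the siLINC01534-1 libraries were the highest. ZNF204P was at 4.31 and 2.18 in Parent cells, so that its Parent libraries were far apart, and it passed no test. ZNF518A, annotated as protein coding but not searched for a KRAB box, rose with siLINC01534-1 by 0.21 ± 0.054 (adjusted p = 0.024) and with siLINC01534-2 by 0.34 ± 0.054 (adjusted p = 0.012). Reads of pseudogenes can be shared with their parent genes, and this was not tested.

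Several members outside the role lists also separated the siRNAs. ZNF629 was at 11.7 and 10.4 in Parent cells, 7.29 and 7.62 with siLINC01534-1, and 10.2 and 10.3 with siLINC01534-2. It passed the test against Parent with siLINC01534-1 alone (-0.51 ± 0.069, adjusted p = 0.0028). ZNF79 was at 5.60 and 4.78, 7.92 and 7.80, and 5.12 and 5.64, and rose with siLINC01534-1 by 0.52 ± 0.087 (adjusted p = 0.0059). ZNF652, a repressor that partners with CBFA2T3, was at 5.14 and 5.35, 7.23 and 7.21, and 5.41 and 5.63, and rose by 0.40 ± 0.059 (adjusted p = 0.0040). ZNF79 and ZNF652 were high with siLINC01534-1, and their siLINC01534-2 libraries reached above the Parent range by little or not at all. ZNF341, which regulates STAT3, was at 2.89 and 3.53 in Parent cells and 2.04 and 2.26 with siLINC01534-1, and fell by 0.41 ± 0.11 (adjusted p = 0.027). ZNF358 was at 6.85 and 7.89, 7.204 and 6.87, and 9.58 and 9.64, and rose with siLINC01534-2 by 0.35 ± 0.076 (adjusted p = 0.029). ZNF185 encodes a LIM domain protein rather than a C2H2 one, and its log2 difference with siLINC01534-1 was 0.25.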
